A study of Mus musculus with 8 samples.

Results

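The genes Id2, Nfil3 and Zeb2 encode transcriptional regulators of the dendritic cell lineage, and the regions described here are the DC-SCRIPT peaks assigned to them in splenic conventional dendritic cells of the mouse. A peak was taken when its centre lay inside one of the 3 genes or, when it lay in no protein-coding gene, when one of them had the nearest gene end. This gave 55 of 34249 listed peaks: 47 of 31473 in cDC1, the subset that cross-presents antigen to CD8 T cells, and 8 of 2776 in cDC2, the subset that mainly primes CD4 T cells. Id2 held 32 cDC1 peaks and 6 cDC2 peaks, Zeb2 held 13 and 2, and Nfil3 held 2 and 0.

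DC-SCRIPT, a zinc finger protein the product of Zfp366, was mapped with CUT&Tag, a method in which a transposase tethered to an antibody inserts sequencing adapters close to the bound protein. The libraries came from cells of Zfp366-/- mice (2 cDC1 and 2 cDC2 libraries) and Zfp366+/+ wild-type mice (3 cDC1 libraries and 1 cDC2 library), all female C57BL/6, each library from a pool of mice. In each genotype, a cDC1 library and a cDC2 library carry the same pool number, so the subsets may share animals. The Zfp366-/- allele, the age of the animals and the number of mice per pool were not given in the sources used here. Each table compares 1 set of knockout tags with 1 set of wild-type tags, so values per library and their spread were not available for any region below, and the knockout served as the background. The sources used here do not state which of the libraries were merged into each set, so a set may hold fewer than all of them. The sets held 12.1 M knockout and 35.5 M wild-type tags in cDC1, and 6.83 M knockout and 4.77 M wild-type tags in cDC2. Signals are tags per 10000000, called normalised tags. A fold is the authors' wild-type over knockout ratio, so that a value above 1 means more signal in wild type. The tables list only regions with a fold of at least 4, and a peak therefore shows nothing by having a high fold. The 95% intervals are exact and cover counting error of tags only. The identity of the sorted cells could not be checked, since peaks give no marker expression.

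Conventional dendritic cells choose between the cDC1 and cDC2 fates through a chain of repressors. Nfil3 is a basic leucine zipper repressor that turns down Zeb2. Zeb2, a zinc finger repressor that binds E-box sequences, turns down Id2 and favours cDC2 and plasmacytoid cells. Id2 is a helix-loop-helix protein without a DNA-binding region, and it holds E proteins such as Tcf4 away from DNA, which cDC1 need for their development. Genes of this kind often lie in long stretches without other coding genes, where distal enhancers reside.

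Among the 6 promoter windows that RefSeq gives for the 3 genes, that of Id2 was the only one overlapped by a peak, and it was overlapped in both subsets. It is shown because it carries the strongest region shared by cDC1 and cDC2. The 250 bases before the annotated Id2 start are given 5′ to 3′ on the minus strand of RefSeq build GRCm38.p6, chr12:25096093-25096342, with the 107 bases inside the cDC1 peak in capitals. The first 76 of these capitals also lie inside the cDC2 peak.
Id2 promoter: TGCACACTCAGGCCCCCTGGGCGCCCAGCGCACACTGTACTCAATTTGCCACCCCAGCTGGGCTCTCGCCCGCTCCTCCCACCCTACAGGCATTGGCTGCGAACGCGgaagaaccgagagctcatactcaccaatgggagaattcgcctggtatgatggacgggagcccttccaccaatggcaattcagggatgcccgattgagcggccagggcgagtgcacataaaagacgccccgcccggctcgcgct

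The window was searched on both strands for CANNTG (E-box), CACCTG (the E-box form bound by ZEB proteins), TTACGTAA and TTATGTAA (NFIL3), TTGCNNAA (C/EBP), GAGGAA (ETS), GGAANNGAA (ETS with IRF), GAAANNGAA (IRF) and TGANTCA (AP-1). CACCTG is a special case of CANNTG, and the 2 composite forms can overlap GAGGAA. A single match was found, the E-box CAGCTG, which begins 196 bases before the start and lies in the part covered by both peaks. Such an E-box occurred in 66.2% of the 32851 promoter windows of the RefSeq table, so its presence is common. CACCTG occurred in 17.2% of all windows and GAGGAA in 23.3%. The C/EBP form was found in 9.56%, the IRF form in 7.13%, the ETS with IRF form in 6.99% and the AP-1 form in 6.75%. The NFIL3 forms were found in 0.113% for TTACGTAA and 0.819% for TTATGTAA. The absence of these letters says nothing on the binding of the factors.

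Id2 lies on chromosome 12 from 25093799 to 25096092 (GRCm38) and reads towards lower coordinates. The next coding gene downstream, Kidins220, is 30.6 kb away, whereas the next upstream, Rnf144a, is 1211 kb away. All 32 cDC1 peaks and all 6 cDC2 peaks lay upstream, and none lay inside the gene. At least 1 cDC1 peak was assigned to 51.4% of the 21887 protein-coding genes, and at least 1 cDC2 peak to 9.54%. Only 3 genes, Foxp1, Jarid2 and Lpp, held more cDC1 peaks than Id2, with 45, 41 and 34, and Adgrl2 also held 32. The chromosome nearer to Id2 than to any other coding gene measured 623 kb, which gives 51.4 cDC1 peaks per Mb, against 11.7 per Mb over all coding genes. Of 1111 genes with 500 kb or more, 1 had a higher density, Jarid2 with 62.6 per Mb, and the median gene of that size had 0.834.

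The 2 cDC1 peaks of Id2 with the highest scores were a distal one and the promoter one. The distal peak, at 25306066 to 25306256, lay 210 kb upstream, within the long non-coding gene Gm46343. It had 9.89 normalised knockout tags and 79.8 normalised wild-type tags, a fold of 8.06 (95% interval 4.55 to 15.8), and ranked 457th by score in the whole cDC1 list. The promoter peak, at 25096236 to 25096426, was centred 239 bases before the start. Its signal was 8.66 normalised tags in knockout and 66.8 in wild type, a fold of 7.75 (95% interval 4.06 to 15.0). These regions also held the highest knockout signal of the 32, so that their folds were below the median fold of 9.93 for Id2, although their wild-type signal was the highest.

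A stretch of high wild-type signal lay between 150 and 240 kb upstream of Id2, a window set after the values were seen. It held 8 cDC1 peaks, among them 6 of the 7 with the highest scores, and 47.3% of all wild-type signal of the 32 peaks. Summed over these 8, the signal was 26.8 normalised knockout tags and 383.6 normalised wild-type tags. The peak at 25329972 to 25330162, 234 kb upstream, had 0.824 normalised tags in knockout, which is 1 tag, and 47.5 in wild type, a fold of 57.6 (95% interval 10.2 to 2283). The peak at 25281576 to 25281766, 186 kb upstream, had 1.24 normalised knockout tags against 54.8 wild-type tags, a fold of 44.3 (95% interval 9.06 to 275.9). At 25311842 to 25312032, 216 kb upstream, the values were 4.53 in knockout and 56.1 in wild type, with a fold of 12.6 (95% interval 5.23 to 31.9). These 3 regions were close in wild-type signal and unequal in knockout signal, with intervals that overlapped.

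**Figure D1:**
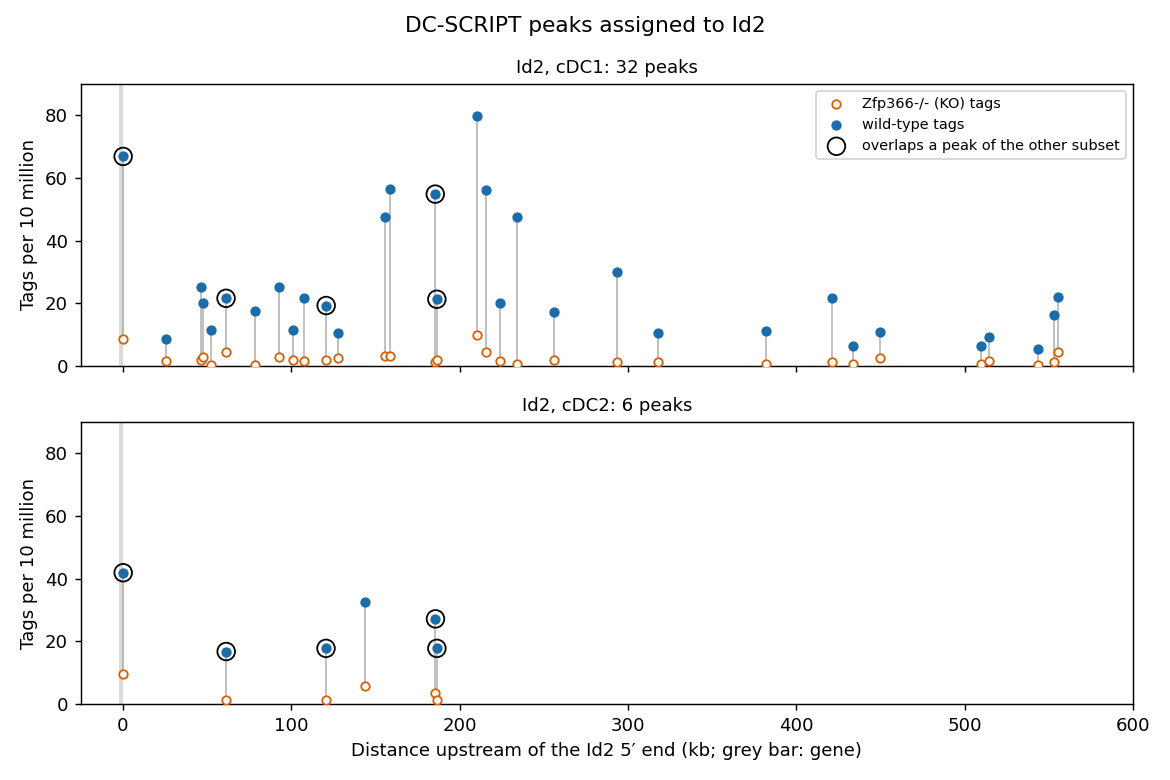
Knockout (open circles) and wild-type (filled circles) tags per 10000000 at each Id2 peak, against the distance upstream of the Id2 5′ end in kb, for cDC1 (top) and cDC2 (bottom); black rings mark peaks that overlap a peak of the other subset. In cDC1 the tallest points stand at the promoter, at 66.8, and between 150 and 240 kb, up to 79.8, while in cDC2 no peak lies beyond 187 kb.

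Outside the promoter and the stretch of high signal, the Id2 peaks of cDC1 reached at most 30.0 normalised wild-type tags. This is above the 2 weakest peaks of that stretch, at 21.3 and 20.0. The peak with 30.0 lay at 25389217 to 25389407, 293 kb upstream, and had 1.24 normalised knockout tags. The 7 peaks from 1 to 100 kb upstream ran between 8.60 and 25.2 normalised wild-type tags, and 2 of them, at 25148686 to 25148876 and at 25174718 to 25174908, had knockout tags at the lowest value that is listed, 0.5 tag. For these regions only the lower 95% limits of the fold, 3.63 and 5.67, can be given. Beyond 300 kb lay 10 peaks of 5.50 to 21.9 normalised wild-type tags, the farthest at 25651540 to 25651730, 556 kb upstream. That peak had 4.53 normalised tags in knockout and 21.9 in wild type. Over all 32 regions the median was 1.85 normalised knockout tags and 20.0 normalised wild-type tags, against 1.65 and 15.5 over the whole cDC1 list, and 21 of the 32 lay above that wild-type median. Neighbouring centres were 0.946 to 63.7 kb apart, with a median of 13.1 kb. Long non-coding genes fill much of this stretch, among them Gm36287, which contains the centres of 10 cDC1 peaks. When genes of every type could take a peak, 1 cDC1 peak and 1 cDC2 peak, those at the promoter, were left to Id2.

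In cDC2, the promoter peak of Id2 had the highest score of the 6, whereas in cDC1 it was second to the distal peak at 210 kb. The peak at 25096267 to 25096457 had 9.52 normalised knockout tags and 41.9 normalised wild-type tags, which are 6.5 and 20.0 tags, and a fold of 4.40 (95% interval 1.66 to 11.4). At 25281694 to 25281884, 186 kb upstream, the signal was 3.66 in knockout and 27.2 in wild type, a fold of 7.43 (95% interval 1.70 to 33.9). The nearby peak at 25282535 to 25282725, 187 kb upstream, had 1.46 in knockout and 17.8 in wild type, and its centre fell within the pseudogene Gm19340. How tags that map to several places were treated was not stated. The peaks at 25157426 to 25157616 and at 25216702 to 25216892, which are 61.4 kb and 121 kb upstream, each had 1.46 normalised knockout tags, or 1 tag, and 16.8 and 17.8 normalised wild-type tags. With 1 knockout tag their folds, 11.4 and 12.2, have 95% intervals that start at 1.53 and 1.78. These 5 regions were the ones shared with cDC1.

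The sixth Id2 peak of cDC2 had no cDC1 peak at its place. It lay at 25239927 to 25240117, 144 kb upstream, where the signal was 5.86 normalised tags in knockout and 32.5 in wild type, a fold of 5.54 (95% interval 1.84 to 23.5). The nearest cDC1 peak was 11.7 kb away. In the other direction, 6 of the 8 cDC1 peaks in the stretch of high signal were missing from the cDC2 list. At the cDC2 wild-type depth their cDC1 signal would equal 9.55 to 38.1 tags, against 6.5 tags at the weakest cDC2 peak of the 3 genes. A region can be missing through lower signal in cDC2 wild-type cells or higher signal in cDC2 knockout cells. It can also be missing through a fold below 4 over the local 10000 bp, or through counting error of tags. A list of peaks cannot tell these apart, and a difference between subsets was not tested.

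Zeb2 lies on chromosome 2 from 44983512 to 45117442, also on the minus strand, and has 4 starts in the RefSeq promoter table, at 45117442, 45113279, 45113253 and 45110277. The next coding genes are Gtdc1, 55.8 kb downstream, and Acvr2a, 3697 kb upstream. Of its 13 cDC1 peaks, 4 lay inside the gene and 9 upstream. The stretch of chromosome nearest to Zeb2 measured 2010 kb, so the density was 6.47 peaks per Mb, below the 11.7 over all coding genes. Among 353 genes with 1000 kb or more, 36 had a higher density and the median gene had no peak. The median signal of the Zeb2 peaks was 0.824 normalised knockout tags and 12.3 normalised wild-type tags, and 4 of 13 exceeded the wild-type median of the cDC1 list.

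The 2 Zeb2 peaks with the highest scores stood between its starts, where the antisense long non-coding gene Zeb2os also lies. The peak at 45111151 to 45111341, centred 0.969 kb before the start at 45110277, had 0.824 normalised knockout tags and 18.7 normalised wild-type tags, a fold of 22.7 (95% interval 3.91 to 905.0, 1 knockout tag). The peak at 45112182 to 45112372, 0.976 kb after the start at 45113253, had 1.24 in knockout and 20.2 in wild type, a fold of 16.3 (95% interval 3.24 to 102.2). Tags do not tell which of the overlapping genes a region serves. Deeper in the gene, the peaks at 45049337 to 45049527 and at 45049982 to 45050172 lay 68.0 and 67.4 kb from the 5′ end. The first had 1.65 normalised knockout and 12.3 wild-type tags. The second had knockout tags at the lowest listed value and 15.5 in wild type, with a lower 95% limit of the fold of 4.93. No Zeb2 peak of cDC1 exceeded 20.2 normalised wild-type tags, about the median of the Id2 peaks of cDC1, at 20.0.

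Upstream of Zeb2, 4 cDC1 peaks lay between 100 and 200 kb from the 5′ end, all within Vis1, an annotated non-coding locus. The 2 strongest were at 45246704 to 45246894, 129 kb upstream, with 0.824 normalised knockout tags and 18.7 wild-type tags, and at 45262084 to 45262274, 145 kb upstream. The region at 145 kb had 4.12 in knockout and 18.5 in wild type, a fold of 4.48 (95% interval 1.81 to 14.2), the lowest fold of the 13. The other 2, at 45264798 to 45264988 and 45279464 to 45279654, had 1.24 and 0.824 in knockout and 9.30 and 8.88 in wild type, at 147 and 162 kb. Distal upstream enhancers of Zeb2 are known in blood cell progenitors. No region was matched to them here. The nearest upstream peak, at 45124461 to 45124651, was 7.11 kb away and had 5.50 normalised wild-type tags, and the farthest, at 45757501 to 45757691, was 640 kb away and had 8.18. In both, knockout tags were at the lowest listed value.

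In cDC2, both Zeb2 peaks coincided with cDC1 peaks. The peak inside the gene at 45111144 to 45111334 was offset by 7 bases from its cDC1 counterpart, and had 4.39 normalised knockout tags and 20.9 normalised wild-type tags, a fold of 4.76 (95% interval 1.23 to 26.9). Behind these values stand 3 knockout and 10 wild-type tags. The peak in Vis1 at 45262085 to 45262275 was offset by 1 base, with 1.46 in knockout and 13.6 in wild type, a fold of 9.29 (95% interval 1.29 to 451.0). It rests on 1 knockout tag and 6.5 wild-type tags, and its score was 7, the lowest in the cDC2 list. Neither would be kept among the higher-scoring 50% of cDC2 peaks.

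**Figure D2:**
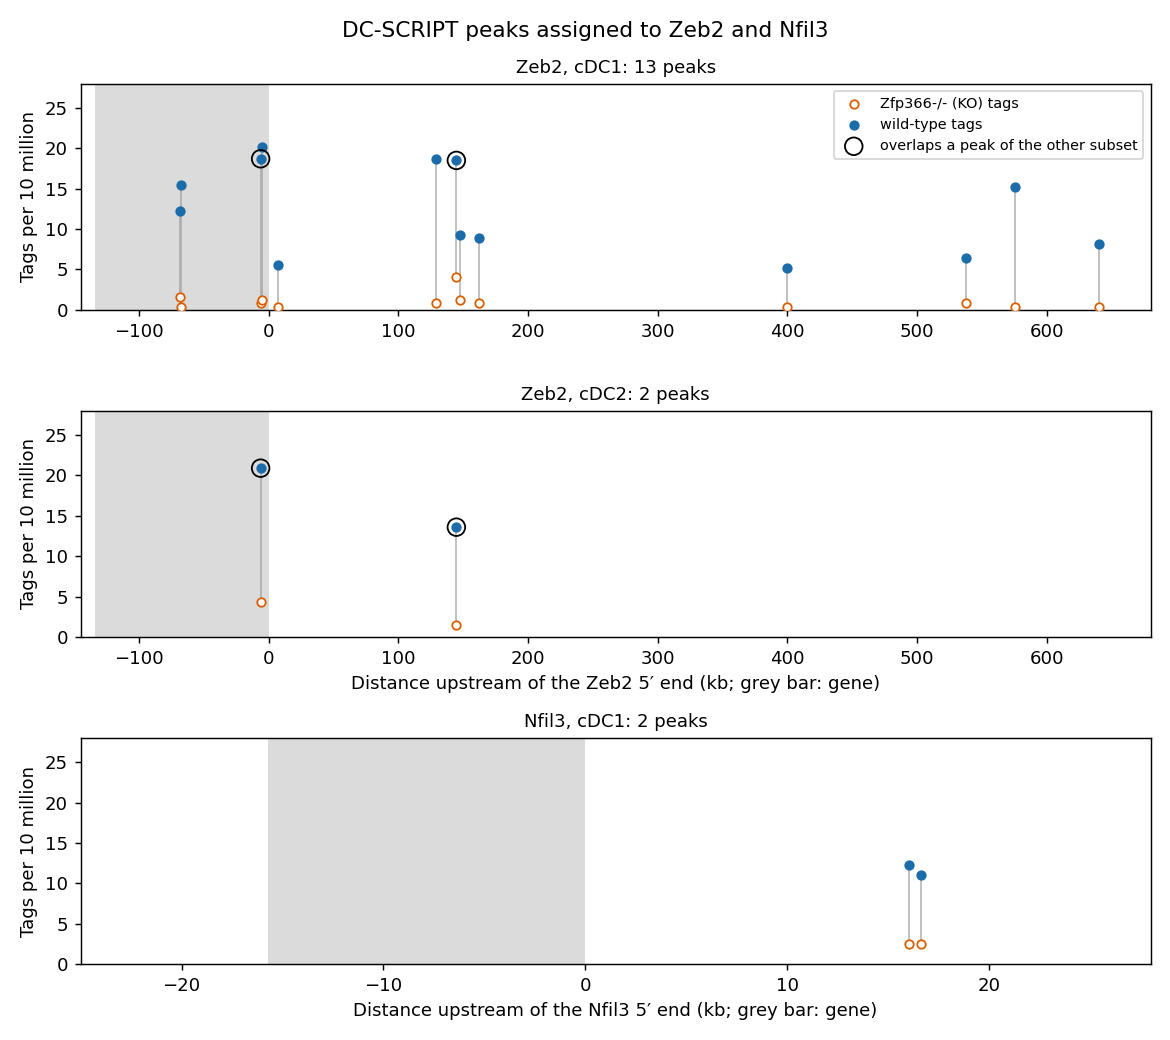
Knockout (open circles) and wild-type (filled circles) tags per 10000000 at the peaks of Zeb2 in cDC1 and cDC2 and of Nfil3 in cDC1, against the distance upstream of each gene's 5′ end in kb; negative distances lie towards or inside the gene, drawn as a grey bar, and black rings mark peaks shared between subsets. No point exceeds 20.9, and the 2 Nfil3 points stand side by side at 12.3 and 11.1.

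Nfil3, on chromosome 13 from 52967209 to 52982878 and on the minus strand, held the fewest peaks. Its 2 cDC1 peaks lay 611 bases apart, upstream of the gene and within the long non-coding gene Gm33424. The one at 52998798 to 52998988, 16.0 kb upstream, had 2.47 normalised knockout tags and 12.3 normalised wild-type tags, a fold of 4.96 (95% interval 1.61 to 25.3). The one at 52999409 to 52999599, 16.6 kb upstream, had 2.47 in knockout and 11.1 in wild type, a fold of 4.50 (95% interval 1.41 to 22.5). Both folds were close to the limit of 4 that the authors set, both signals were below the median of the cDC1 list, and neither region was among the higher-scoring 50% of it. At least 2 cDC1 peaks were held by 29.5% of coding genes, so the count of Nfil3 was a common one. Of 7211 genes with 50 to 200 kb of nearest chromosome, 2647 had a higher density than the 20.5 per Mb of Nfil3, and the median was 13.0. The gene and its promoter window held none.

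No cDC2 peak was assigned to Nfil3. At the cDC2 wild-type depth the 2 cDC1 regions would equal 5.87 and 5.30 tags. The weakest peak listed in cDC2 had 12.6 normalised wild-type tags, close to the 12.3 and 11.1 of these regions in cDC1. At this depth, their absence from the cDC2 list does not show a lower signal in cDC2.

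**Figure D3:**
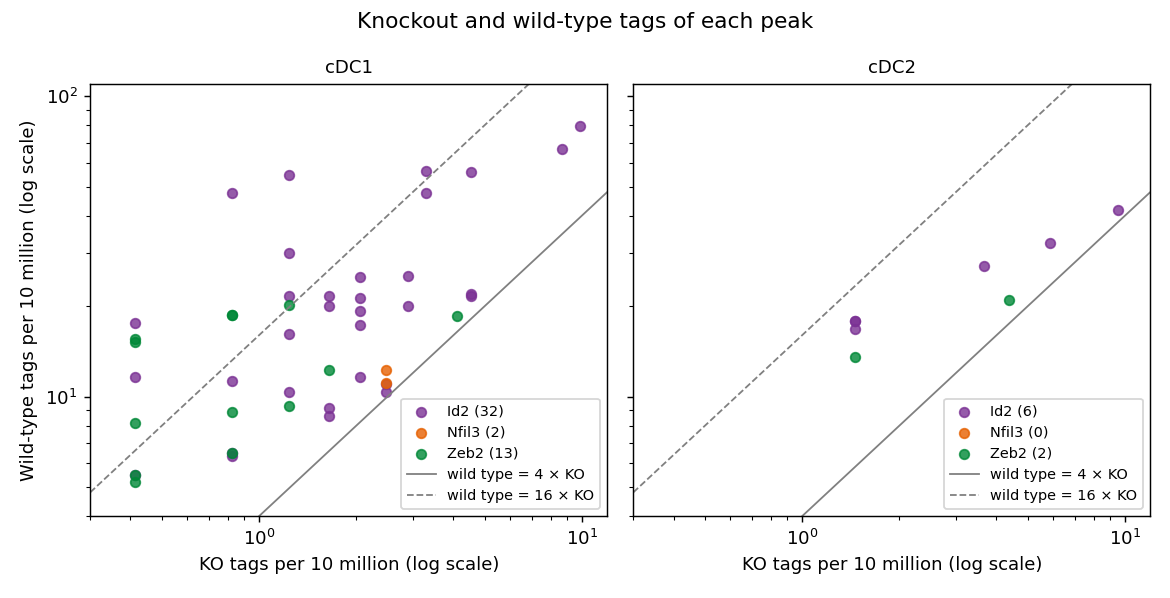
Knockout against wild-type tags per 10000000, both on log scales, for each peak of Id2, Nfil3 and Zeb2 in cDC1 (left) and cDC2 (right), with lines where wild type equals 4 and 16 times the knockout. All points lie above the lower line, which is the authors' limit, and the Id2 peaks reach the highest values on both axes, up to 9.89 in knockout and 79.8 in wild type in cDC1.

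Of the 8 cDC2 peaks of the 3 genes, 7 shared 1 bp or more with a peak of cDC1 (87.5%), against 63.7% of all 2776 cDC2 peaks. Of the 47 cDC1 peaks, 7 overlapped a cDC2 peak, which is 14.9%, against 5.61% of all 31473. Among cDC1 peaks with at least the 12.6 normalised tags of the weakest cDC2 peak, the shares were 7 of 27, or 25.9%, and 8.42%. Peaks of 1 gene share their chromosome neighbourhood and are not independent, so these shares are given without a test. The Id2 promoter had the highest wild-type signal of the 7 in both subsets, with 66.8 in cDC1 and 41.9 in cDC2. The region 186 kb upstream of Id2 followed with 54.8 and 27.2, while the region inside Zeb2, at 18.7 and 20.9, was about level in wild type. Knockout signal in cDC1 and cDC2 was 8.66 and 9.52 at the promoter, 1.24 and 3.66 at 186 kb, and 0.824 and 4.39 inside Zeb2. The wild-type median of the whole list was 15.5 in cDC1 and 24.1 in cDC2, so normalised tags of the 2 lists are not on a like footing. Each cDC2 wild-type value rests on a single library.

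**Figure D4:**
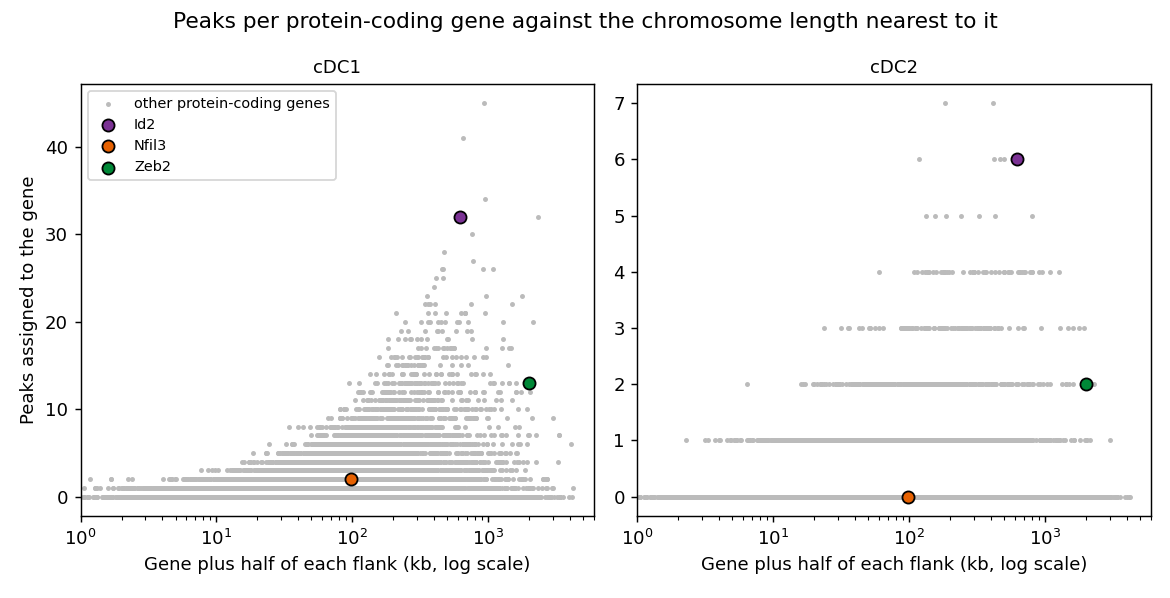
Peaks assigned to each protein-coding gene in cDC1 (left) and cDC2 (right) against how many kb of chromosome lie nearest to it, on a log scale, with Id2, Nfil3 and Zeb2 marked. Id2 stands near the upper edge in both, with 32 and 6 peaks, whereas Zeb2 has 13 and 2 and Nfil3 2 and 0.

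Other genes of the same circuit were listed by family, a list chosen with earlier results of these data known. Of its 29 genes, 24 had a cDC1 peak and 14 a cDC2 peak. Without Id2, Nfil3 and Zeb2 the counts were 21 and 12 of 26, which is to be read against 51.4% and 9.54% of all coding genes. Among the relatives of Id2, which bind E proteins as it does, Id1 held 1 cDC1 peak, Id3 held 2 and Id4 none. The chromosome nearest to Id4 was 619 kb long, close to the 623 kb of Id2, but 23.2 kb for Id1 and 60.2 kb for Id3. Per Mb, the few peaks of Id1 and Id3 gave 43.1 and 33.2, against 51.4 for Id2. The E proteins are the partners that Id2 holds away from DNA. Of these, Tcf4 held 16 cDC1 peaks and Tcf12 held 11, while Tcf3 held none in either subset. The chromosome nearest to them was 920.0 kb for Tcf4, 366.5 kb for Tcf12 and 56.3 kb for Tcf3. Per Mb, Tcf4 held 17.4 cDC1 peaks and Tcf12 held 30.0, against 11.7 over all coding genes. The highest-scoring Tcf12 peak had knockout tags at the lowest listed value and 44.0 normalised wild-type tags, and that of Tcf4 had 5.36 in knockout and 24.2 in wild type. Zeb1, the other ZEB repressor, held 8 cDC1 peaks, the highest-scoring at 4.12 in knockout and 45.1 in wild type, and no cDC2 peak. The chromosome nearest to Zeb1 was 436.9 kb long, which gives 18.3 cDC1 peaks per Mb, against 6.47 for Zeb2.

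The C/EBP factors, leucine zipper proteins of myeloid cells, held 11 cDC1 peaks over 4 of 5 genes, 5 of them at Cebpb. Its highest-scoring peak had 2.47 normalised knockout tags and 40.0 normalised wild-type tags. Of the leucine zipper relatives of Nfil3, Tef held 2 cDC1 peaks, and Dbp and Hlf held none. All 4 cDC1 factors of the list and all 5 cDC2 factors had a cDC1 peak. These counts, and that of the C/EBP genes, are to be read against the 51.4% of all coding genes with a cDC1 peak. Bcl6, a repressor needed by cDC1, held 20, Klf4, which cDC2 need, held 21, and Batf3, which sustains Irf8 in cDC1, held 5. Per Mb of nearest chromosome, the cDC1 peaks were 82.2 for Bcl6, 31.0 for Klf4 and 112.9 for Batf3. In cDC2 the factors with most peaks were Id2 with 6 and Bcl6 with 5, followed by Runx3 and Zbtb46 with 3 each.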

How the data were processed

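CUT&Tag libraries fell into groups of subset and genotype by their titles. Per the file headers, the authors called peaks with HOMER findPeaks in factor style on 1 wild-type tag directory with 1 knockout directory as control, at 191 bp, a false discovery rate of 0.001, a fold of at least 4 and a Poisson p-value of at most 0.0001 over the knockout and over the local 10000 bp. The builds GRCm38 and mm10 come from the submitters' processing notes. Alignment and duplicate handling were not given in the sources used here.

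As signal, the authors deposited wild-type tags per 10000000. The deposited score is in tags and was only ranked within a list. The deposited fold ratio and p-value compare tags, not libraries. The focus ratio, a fraction per the file headers, and 1 column on clonal tags per table were not used. Knockout depth and unscaled tags were worked out here from the scaling between columns. In cDC1, 3 knockout tags correspond to 2.47 normalised tags, and in cDC2 to 4.39.

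Peaks were assigned to 21887 RefSeq protein-coding genes (GRCm38.p6) with Python 3.11.15, pandas 2.3.3 and SciPy 1.17.1. The 95% intervals are exact (Clopper-Pearson) for whole-number tags, with 0.5 knockout tag read as none. Other fractions of a tag were rounded to the nearest whole tag, and a remainder of 0.5 upwards, for the interval but not for the fold. Rounding knockout tags up moves an interval lower against the fold beside it. Tags without molecular identifiers are not independent molecules. The assignment and intervals were tested on simulated data. The simulated tags were whole numbers and were not selected for a high fold. The coverage of the intervals was therefore not tested for selected peaks such as those described here. No test between genotypes was made, since each table holds 1 tag set per genotype and only regions that passed it. Gene starts came from the RefSeq promoter table, which covers 17492 coding genes. No genome sequence was used here, so exons and introns were not assigned and peaks outside promoter windows were not searched for motifs. The genes and lists were chosen with earlier results of these data known. Peaks named with coordinates are the 5 highest-scoring per gene and subset, those shared or within 1 kb of a start, the nearest and the farthest. The others were named after their values were seen.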

Additional observations from a re-analysis of the deposited data

How the results depend on the processing

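Counts of peaks per gene moved with the rule of assignment, by its construction. With genes of every type, Id2 kept 1 peak in cDC1 and 1 in cDC2, Zeb2 kept 5 and 1, and Nfil3 had 0 in cDC1. Within 100 kb of the gene Id2 had 8 and 2 and Zeb2 5 and 1, and within 10 kb Id2 had 1 and 1, Zeb2 5 and 1, and Nfil3 0 in cDC1. In the higher-scoring 50% of each list Id2 had 21 and 3, Zeb2 5 and 0, and Nfil3 0 in cDC1. With a fold of at least 8, Id2 had 21 and 3, Zeb2 1 in cDC2, and Nfil3 0 in cDC1. With the nearest gene start, Nfil3 had 4 in cDC1. The other 25 values under the alternatives stayed within 1.5 times the count reported, or, for folds, within the interval. The count of 7 shared peaks was 6 with an overlap of 50% and 7 with centres within 1 kb. With 1 tag added to the knockout, the fold of the highest-scoring peak fell below 4 for Nfil3 in cDC1 (3.72), for Id2 in cDC2 (3.81) and for Zeb2 in cDC2 (3.57).

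No paired analysis was possible because each table holds 1 tag set per genotype. Leaving out each library was not run for the same reason. A single knockout tag stands behind 4 of the 8 cDC2 folds.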

Other observations

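Only 0.0228% of coding genes reached the 32 cDC1 peaks of Id2, so a lower count at a neighbouring gene says little. The coding genes next to the 3 loci are described here without a test. Kidins220, downstream of Id2, held 2 cDC1 peaks and Mboat2 beyond it none, while Rnf144a, at the far end of the upstream stretch, held 4. Near Nfil3, which itself held 2 cDC1 peaks, Auh held 8 and Ror2 held 2. Per Mb of nearest chromosome, the cDC1 peaks were 38.7 for Auh and 7.59 for Ror2, against 20.5 for Nfil3. Syk, a kinase gene beyond Auh, held 6 cDC1 and 4 cDC2 peaks, the highest-scoring with 4.53 normalised knockout tags and 76.3 normalised wild-type tags in cDC1, and 12.5 and 54.5 in cDC2. Near Zeb2, Gtdc1 held 4 cDC1 peaks and no cDC2 peak. Acvr2a, across the long upstream stretch, held 10 cDC1 and 3 cDC2 peaks over 1937 kb, a density of 5.16 cDC1 peaks per Mb, close to the 6.47 of Zeb2.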
